A study of Saccharomyces cerevisiae with 116 samples.

Results

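The 10 genes described here encode the signalling core of the yeast cell wall integrity pathway and enzymes that build the wall, out of 6705 to 6709 open reading frames (ORFs) in each of the deposited count tables. They were chosen by ORF identifier and not by a cut on their values, though with earlier results of these data known. Shares of members called are therefore descriptions. The signalling genes are PKC1 (YBL105C), RHO1 (YPR165W), SLT2 (YHR030C), KDX1 (YKL161C) and RLM1 (YPL089C), and the enzyme genes are FKS1 (YLR342W), GSC2 (YGR032W), CHS1 (YNL192W), CHS3 (YBR023C) and CRH1 (YGR189C). All 10 passed the filter on low counts in every comparison of RNA libraries, and no other RefSeq gene overlaps any of them.

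Sensors of the Wsc and Mid2 families report stretch or damage of the wall to the small GTPase Rho1, which binds protein kinase C (Pkc1). Pkc1 starts a kinase cascade that ends at the MAP kinase Slt2, and Slt2 activates the transcription factor Rlm1, whose targets include wall proteins and enzymes as well as SLT2 itself. Rho1 is also the regulatory subunit of the enzyme that makes beta-1,3-glucan, of which Fks1 and Gsc2 are the alternative catalytic subunits. The pathway is known to respond to heat, to wall damage and to the polarised growth that mating pheromone brings about.

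The study exposed strain BY4741, a MATa laboratory strain, to salt (NaCl) or heat while its cells were growing asynchronously or were held by a drug, and its title asks about growth and defence in the stress response. Cells grew in YPD medium for 7 to 10 generations. They were then left untreated or were given alpha factor (mating pheromone, which arrests MATa cells in G1) at 25 uM, nocodazole (a microtubule poison, which arrests cells in mitosis) at 10 ug/ml, or cycloheximide (a translation inhibitor) at the labels 0.1 and 0.2 (unit not given in the sources used here). Arrests lasted 2 h, with 3.5 h of nocodazole in some libraries. To 16 of the RNA libraries fission yeast cells (S. pombe) had been added. They held growing and alpha-factor cells before salt (T0) and at T30, read as minutes, 3 replicates of each, and cycloheximide cells, 1 library per dose and time. 50 RNA libraries had no added cells. They covered salt and heat in growing cells (1 library before and 1 after each stress), in alpha-factor arrest and in nocodazole arrest (2 libraries at T0 and 3 at salt T30 or heat T10 in each arrest, and single libraries at other times), and salt after 3.5 h of nocodazole or in cycloheximide 0.1 (2 libraries at each time) and 0.2 (1 at each). Of the 3 stressed libraries of an arrest, 1 has no dose or temperature in its label, and the others are labelled 0.5N and 0.7N for salt or 33c and 37c for heat. The remaining 50 were gradient fractions, which separate RNA by its ribosome load, with their inputs.

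S. cerevisiae totals were 1555271 to 5469230 counts in the libraries with added cells, 1794997 to 7043273 in those without, and 365088 to 5081617 in the gradient libraries. The smallest count of any of the 10 genes in an RNA library was 45, for which counting error alone gives an exact Poisson interval (95%) of 32.8 to 60.2. The submitters call their replicates biological without saying whether each was a separate culture, and every p-value rests on the spread between these libraries alone. Levels are given as CPM, counts scaled to the S. cerevisiae total of the library, a share that cannot tell fewer cells expressing a gene from less of its RNA per cell, and they are not compared between genes because no gene length was used. In the RNA libraries outside the gradients, pheromone and mitotic markers went with the labels: the summed CPM of FUS1, FIG1, AGA1 and PRM2, pheromone-induced genes, was 3688 to 5350 in alpha factor at T0 against at most 116 in any such library without pheromone, and the summed CPM of CLB1, CLB2, CDC20, CDC5 and SWI5, mitotic genes, was 887 to 1022 after 2 h of nocodazole at T0, 507 to 626 in growing cells and 101 to 175 in alpha factor. The library of alpha factor with salt T30, replicate 2 (added cells), stood apart from its group. It had a summed CPM of 618 for the G1/S genes CLN1, CLN2, CLB6, PCL1 and CDC21, where the other replicates had 57.3 and 125. The nocodazole library at salt T30 labelled 0.5N differed from its group in several of the 10 genes, and its comparison is given with and without it. Comparisons within a series share their T0 libraries.

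Arrest by alpha factor went with high levels of kinase and synthase genes before any stress was applied. In the libraries with added cells, 5 of the 10 genes were higher in alpha factor than in growing cells at T0 (edgeR, adjusted p under 0.05 over all genes) and none was lower, where 12.8% of the 5744 genes tested were called in either direction and 8.60% as higher. These were the MAP kinase SLT2, its paralog KDX1, the inducible glucan synthase GSC2 and the chitin synthases CHS1 and CHS3. The median change of the 10 members was 1.39 on the log2 scale, against -0.01 over all genes.

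SLT2, the MAP kinase of the pathway, was at 79.7, 113 and 120 CPM in the growing libraries and at 560, 511 and 590 CPM in the alpha-factor libraries. The groups did not overlap, and the fitted log2 change was 2.45 ± 0.16 (± SE throughout, edgeR adjusted p = 5.71e-07). KDX1, a paralog of SLT2 that acts in the same pathway as a pseudokinase, was at 16.1, 24.9 and 23.9 CPM while growing and at 148, 106 and 145 CPM in alpha factor. Every alpha-factor library was again above every growing one (2.65 ± 0.26, edgeR adjusted p = 2.29e-05). RHO1, the GTPase upstream of both, was at 239, 165 and 167 CPM in growing cells and at 389, 257 and 289 CPM in alpha factor, without overlap, but its change of 0.73 ± 0.26 passed only with the replicate pairs as a block (edgeR adjusted p = 0.101 without and 0.000125 with the block). RLM1, the transcription factor that Slt2 activates, behaved likewise, with 32.8, 81.6 and 76.1 CPM in growing cells against 103, 129 and 135 CPM and a change of 1.0 ± 0.34 (edgeR adjusted p = 0.0765, and 0.000306 with the block). PKC1, the kinase at the head of the cascade, was at 264 to 312 CPM in growing cells and at 270 to 275 CPM in alpha factor, a difference of -0.05 ± 0.17 with a 95% interval of -0.39 to 0.29 (edgeR adjusted p = 0.921).

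Among the enzymes, GSC2, the alternative catalytic subunit of glucan synthase, differed most. Its growing libraries held 244, 215 and 170 CPM and its alpha-factor libraries 4643, 2549 and 2710 CPM. Replicate 1 stood above the others in alpha factor, and every alpha-factor value was far above every growing value, with a log2 change of 4.0 ± 0.40 (edgeR adjusted p = 2.68e-05). FKS1, the subunit used in growing cells, was at 4807, 2376 and 3591 CPM in growing cells and at 5058, 4402 and 3458 CPM in alpha factor, with overlapping groups (0.28 ± 0.37, edgeR adjusted p = 0.723). GSC2 and FKS1 are close paralogs, as are SLT2 and KDX1, and their values are uncertain as far as reads matched both copies, whose treatment was not given in the sources used here. CHS1, which repairs the wall with chitin after daughter cells separate, was at 307, 276 and 301 CPM and at 2059, 1367 and 1497 CPM in alpha factor, without overlap (2.51 ± 0.30, edgeR adjusted p = 0.000104). CHS3, which makes most of the chitin of the wall, was at 422, 324 and 373 CPM and at 1417, 1251 and 1134 CPM in alpha factor, again without overlap (1.79 ± 0.31, edgeR adjusted p = 0.00191). CRH1, which links chitin to glucan, was at 342, 523 and 387 CPM and at 545, 654 and 642 CPM, a difference of 0.59 ± 0.38 (edgeR adjusted p = 0.394, and 0.0327 with the block). With the block 8 of the 10 genes were called, against 29.9% of all genes.

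**Figure D1:**
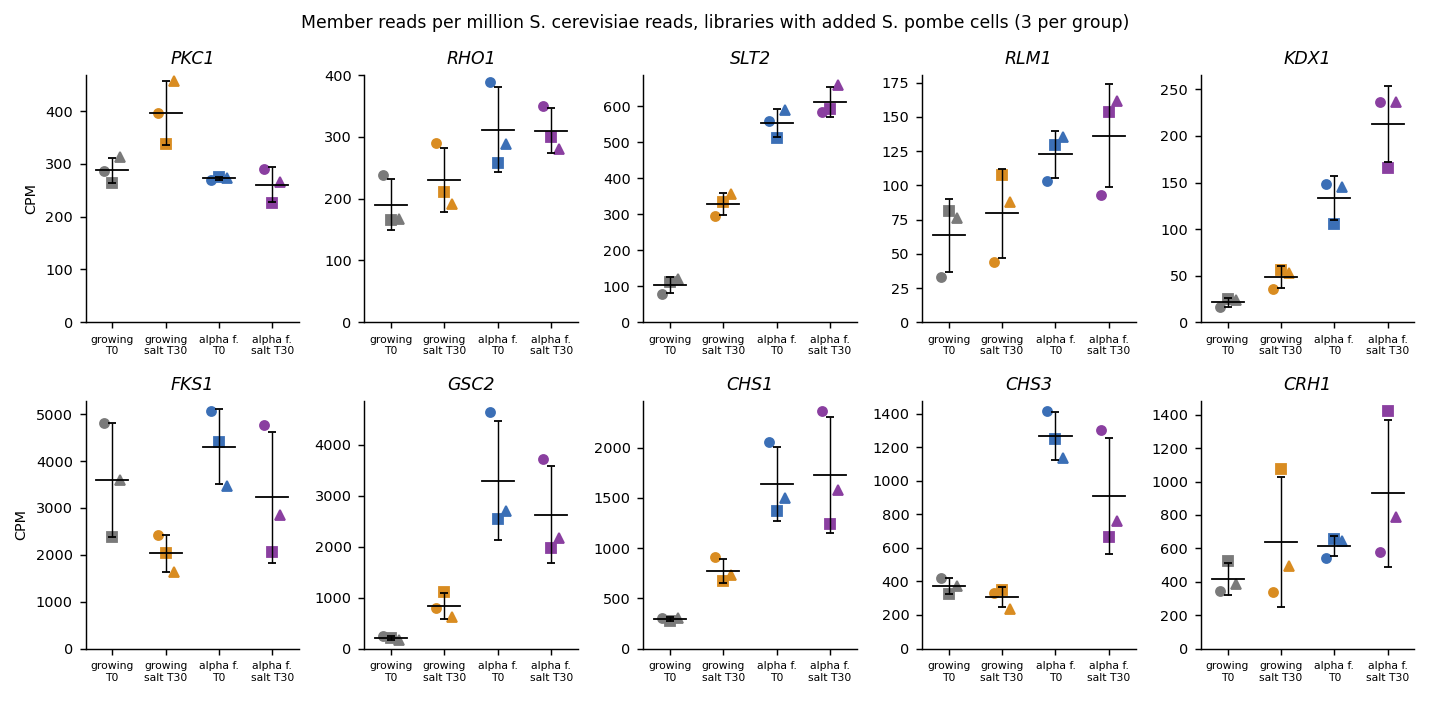
CPM (linear axes from 0) of the 10 genes in the libraries with added S. pombe cells: growing and alpha-factor cells at T0 and at salt T30, with 3 libraries per group, a marker shape per replicate number, and lines and bars for the mean and SD. SLT2, KDX1, GSC2 and CHS1 were higher after salt in growing cells and stood higher still in alpha factor before salt, while PKC1 lay between 226 and 458 CPM in all 12 libraries.

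In growing cells salt raised SLT2, KDX1, GSC2 and CHS1, to levels below those of the pheromone arrest. These 4 of the 10 genes rose and none fell, where 41.8% of 5744 genes were called in either direction and 22.2% as higher, so that the share of members called in either direction was close to that of all genes. SLT2 rose from 79.7, 113 and 120 CPM to 296, 334 and 357 CPM (1.52 ± 0.15, edgeR adjusted p = 1.02e-05), and KDX1 reached 35.3, 56.6 and 53.4 CPM (1.02 ± 0.26, edgeR adjusted p = 0.00637). In both genes every salt library was above every T0 library. GSC2 reached 794, 1103 and 614 CPM (1.85 ± 0.37, edgeR adjusted p = 0.00151) and CHS1 reached 907, 677 and 732 CPM (1.25 ± 0.29, edgeR adjusted p = 0.00365), also without overlap with T0.

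The constitutive synthase FKS1 was lower at T30, at 2417, 2042 and 1630 CPM, with some overlap with T0 because of the 2376 CPM of T0 replicate 2. Its change of -0.97 ± 0.38 did not pass (edgeR adjusted p = 0.0548) and passed with the replicate block (-0.93, edgeR adjusted p = 0.0024). PKC1, RHO1, RLM1, CHS3 and CRH1 had changes of 0.31, 0.13, 0.20, -0.42 and 0.48, none past the threshold. In the 1 pair of growing libraries without added cells, GSC2 was at 199 CPM before and 1064 CPM after salt, CHS1 at 250 and 835 CPM, SLT2 at 106 and 266 CPM, and KDX1 at 20.2 and 40.8 CPM.

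In cells already arrested by alpha factor none of the 10 genes was called after salt (edgeR, against 9.09% of all genes, 5.47% as higher and 3.62% as lower), 1 gene, KDX1, had an unadjusted p under 0.05, and DESeq2 called 0. SLT2 was at 583, 591 and 659 CPM at T30, against 511 to 590 CPM at T0 (0.05 ± 0.15, 95% interval -0.25 to 0.34). CHS1 was at 2362, 1240 and 1575 CPM, which overlapped its T0 range (0.00 ± 0.28, 95% interval -0.54 to 0.55). GSC2 was at 3719, 1982 and 2180 CPM, lower than its T0 partner in each of the 3 replicate pairs, with a change of -0.40 ± 0.36 (edgeR adjusted p = 0.554).

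KDX1 was at 237, 165 and 237 CPM against 106 to 148 CPM at T0, without overlap and higher in 3 of 3 pairs. Its change of 0.60 ± 0.24 passed only with the replicate block (edgeR adjusted p = 0.147 without and 0.0415 with it). CHS3 was at 1301, 662 and 759 CPM, with overlap with T0 (-0.55 ± 0.30, edgeR adjusted p = 0.298). It passed with the block (-0.61, edgeR adjusted p = 0.0306) and without T30 replicate 1 (-1.02, edgeR adjusted p = 0.0323). Between T0 and T30 the summed pheromone markers went from 3688 to 5350 CPM down to 1685 to 3603 CPM, and their part in these values was not tested. Without T30 replicate 2, the library with raised G1/S genes, 0 members were called and KDX1 had a change of 0.79 (edgeR adjusted p = 0.0734).

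The salt responses of the arrested and growing cells were compared directly as an interaction contrast, which shares the T0 alpha-factor and T0 growing libraries with the comparison of arrest before salt. SLT2 responded less in alpha factor, by 1.48 ± 0.21 on the log2 scale (contrast -1.48, edgeR adjusted p = 0.00241), and GSC2 by 2.25 ± 0.51 (contrast -2.25, edgeR adjusted p = 0.0186), where 8.79% of genes were called, 3.73% with a positive and 5.07% with a negative contrast. The GSC2 difference did not pass without alpha-factor T0 replicate 1, its highest library (-1.90, edgeR adjusted p = 0.0532). CHS1 had a contrast of -1.24 ± 0.40 (edgeR adjusted p = 0.0716), which passed with the block (-1.27, edgeR adjusted p = 0.000647). KDX1 did not differ beyond its error, with -0.42 ± 0.35 and a 95% interval of -1.10 to 0.26.

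These shares are relative to all S. cerevisiae RNA. When library sizes were taken from the S. pombe totals instead, the median change of all genes went from 0.05 to 0.60 for salt in growing cells, from 0.00 to 0.51 for salt in alpha factor, from -0.01 to -0.25 for arrest and from -0.02 to -0.06 for the difference of responses. The split of all genes into higher and lower calls went from 1275 and 1124 to 1209 and 223 for salt in growing cells, from 314 and 208 to 277 and 2 for salt in alpha factor, and from 214 and 291 to 7 and 61 for the difference. On that scale the same members were called for arrest (GSC2 3.67, KDX1 2.35, CHS1 2.21, SLT2 2.18, CHS3 1.55) and for salt in growing cells (GSC2 2.47, SLT2 2.05, CHS1 1.80, KDX1 1.56). The uncalled change of CHS3 in growing cells became 0.18 and that of GSC2 in alpha factor 0.03, so neither has a settled sign. For salt in alpha factor PKC1, RHO1 and CHS1 stood at -0.17, -0.09 and -0.04 with the replicate block. With S. pombe totals they stood at 0.27, 0.405 and 0.40, so their signs are not settled either. Of the other members there, only GSC2 also differed in sign between these fits. The fall of FKS1 in growing cells became -0.36 (edgeR adjusted p = 0.493), so its size depends on the scaling. Of the differences of responses, GSC2 passed on that scale (-2.45, edgeR adjusted p = 0.016) and SLT2 did not (-1.50, edgeR adjusted p = 0.384).

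**Figure D2:**
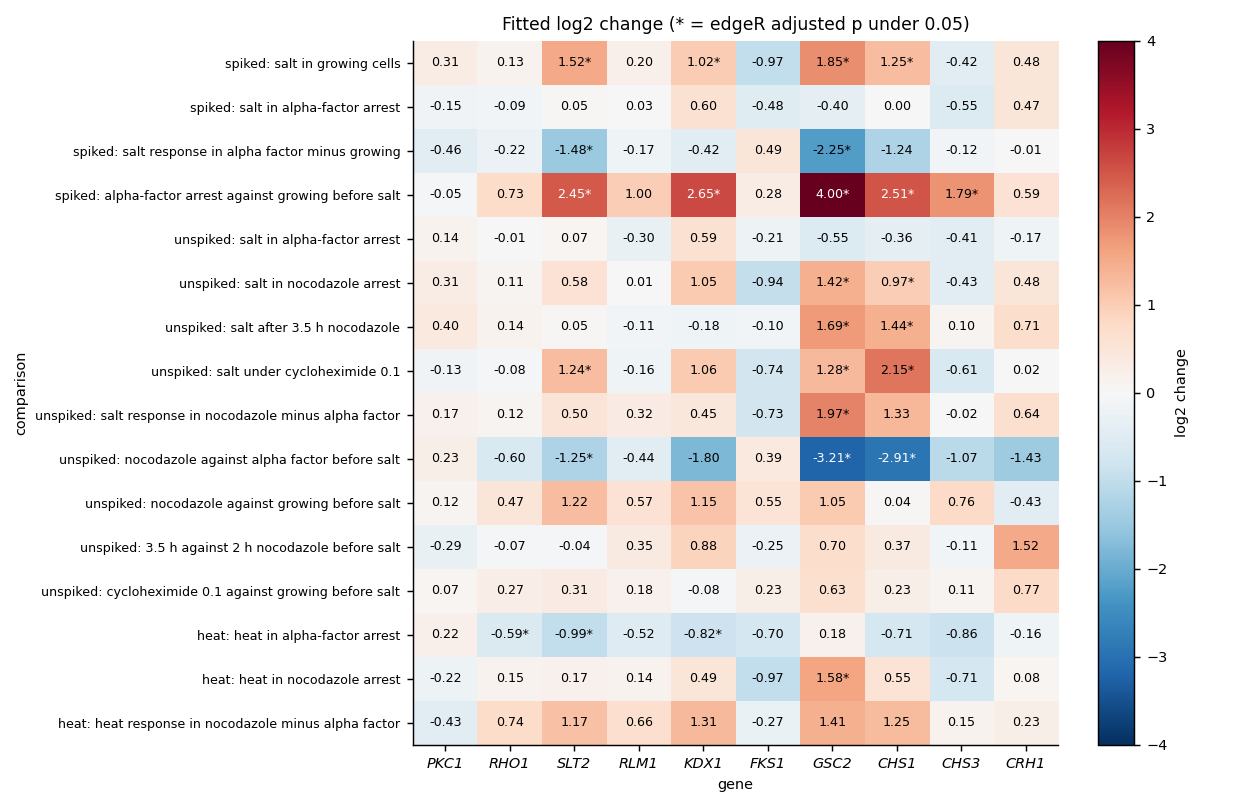
Fitted log2 change of each gene (columns) in each comparison (rows), with red for higher, blue for lower and a star for an edgeR adjusted p under 0.05. GSC2 carries the most stars, from 4.0 in alpha factor against growing cells to -3.21 in nocodazole against alpha factor, and PKC1, RLM1, FKS1 and CRH1 carry none.

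GSC2, CHS1 and SLT2 were lower in cells held in mitosis by nocodazole than in alpha factor. Before salt (2 libraries per arrest, no added cells) GSC2 was at 355 and 445 CPM in nocodazole and at 4110 and 3369 CPM in alpha factor (-3.21 ± 0.37, edgeR adjusted p = 1.52e-05). CHS1 was at 246 and 253 CPM in nocodazole against 1967 and 1832 CPM (-2.91 ± 0.33, edgeR adjusted p = 1.52e-05), and SLT2 at 252 and 227 CPM against 542 and 616 CPM (-1.25 ± 0.32, edgeR adjusted p = 0.0194). None of these groups overlapped. They made 3 of 10 members called, all lower, against 8.84% of 5836 genes (3.99% higher and 4.85% lower), and the SLT2 call was lost without any 1 of the 4 libraries (edgeR adjusted p from 0.0826 to 0.169). KDX1 (44.4 and 42.8 against 170 and 137 CPM) and CHS3 (595 and 615 against 1321 and 1261 CPM) had changes of -1.80 and -1.07 that did not pass (edgeR adjusted p = 0.0722 and 0.0564).

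Against the 1 growing library, nocodazole cells gave 0 calls among the members in edgeR and 0 in DESeq2 (1.71% of all genes called, 0.754% higher and 0.960% lower), with 2 at an unadjusted p under 0.05: SLT2 (106 CPM growing, change 1.22 ± 0.42) and GSC2 (199 CPM growing, 1.05 ± 0.44). When only the groups compared entered the fit 8 members were called there, against 27.5% of all genes, a fit whose spread rests on the 2 nocodazole libraries. A longer arrest of 3.5 h also gave 0 calls in edgeR and in DESeq2 (0.274% of all genes, 0.257% higher and 0.0171% lower), with 1 at an unadjusted p under 0.05. That gene was CRH1, at 615 and 689 CPM after 3.5 h against 155 and 274 CPM after 2 h (1.52 ± 0.53), and it was called together with KDX1, GSC2 and CHS1 when only the groups compared were fitted (11.3% of all genes). The summed G1/S markers were 258 and 336 CPM after 3.5 h against 97.6 and 113 CPM after 2 h, and their part in these values was not tested. The labels do not tie the replicate numbers of the 3.5 h libraries to those of the 2 h libraries. Arrest length therefore cannot be told apart from other differences between these libraries.

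Salt did raise members in nocodazole arrest. GSC2 rose to 1371, 797 and 1127 CPM (1.42 ± 0.32, edgeR adjusted p = 0.00307) and CHS1 rose to 567, 406 and 535 CPM (0.97 ± 0.29, edgeR adjusted p = 0.0177), both without overlap with T0. They made 2 of 10, against 31.6% of all genes (14.8% higher and 16.8% lower), so the members' share was below that of all genes. Without nocodazole T0 replicate 1 neither passed (edgeR adjusted p = 0.0597 for GSC2 and 0.12 for CHS1), and CHS1 also did not pass without T0 replicate 2 or T30 replicate 1. In alpha factor without added cells none was called in edgeR or DESeq2 (5.86% of all genes, 3.24% higher and 2.62% lower), and 0 had an unadjusted p under 0.05. GSC2 there was at 2822, 2570 and 2733 CPM after salt, below both T0 libraries (-0.55 ± 0.30), and KDX1 at 255, 240 and 244 CPM, above both (0.59 ± 0.52).

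The GSC2 response was larger in nocodazole than in alpha factor by 1.97 ± 0.44 (edgeR adjusted p = 0.0303), where 2.36% of genes were called (1.78% higher and 0.583% lower). The call was lost when any 1 of 9 of the 10 libraries was left out (edgeR adjusted p from 0.0539 to 0.245), and without the nocodazole 0.5N library it held at 2.11 (edgeR adjusted p = 0.00559). CHS1 had a difference of 1.33 ± 0.40 that did not pass (edgeR adjusted p = 0.097).

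The 3 nocodazole libraries at salt T30 differed in the signalling genes. The 0.5N library held 565 CPM of SLT2, 196 of KDX1, 131 of RLM1 and 586 of CRH1. The 0.7N library held 266, 47.3, 64.1 and 163 CPM of the same genes, and the library with no dose in its label 257, 29.9, 51.0 and 156 CPM. The 0.5N library was thus above both others in all 4 genes, by more than those differed from each other. With 1 library per dose there is no replicate check. In alpha factor the ratio of 0.7N to 0.5N lay between 0.780 (FKS1) and 1.13 (PKC1) for all 10 genes, while in nocodazole it ran from 0.241 (KDX1) to 1.47 (PKC1). Without the 0.5N library 4 members were called in nocodazole, against 36.7% of all genes: GSC2 (1.59), CHS1 (1.09), PKC1 (0.50, edgeR adjusted p = 0.0395) and FKS1 (-1.38, edgeR adjusted p = 0.0241). The change of KDX1 was then -0.25 in place of 1.05 and that of CRH1 -0.48 in place of 0.48, past the threshold in neither fit. The summed mitotic markers of the 3 libraries were 1058 (0.5N), 1181 (0.7N) and 1001 CPM, and their part in the difference was not tested.

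**Figure D3:**
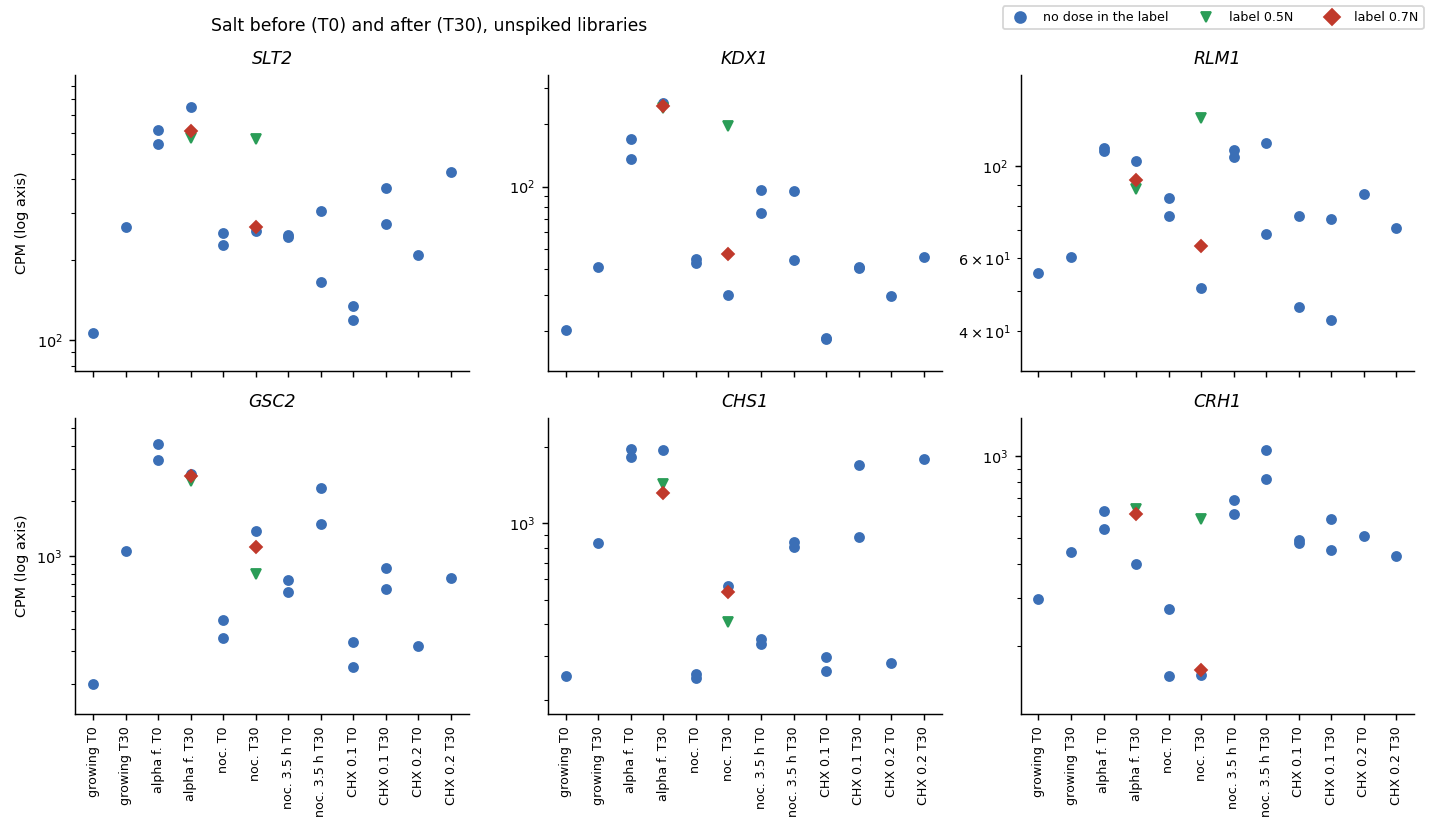
CPM (log axes) of 6 of the genes before salt (T0) and at T30 in the libraries without added cells, with green triangles for the label 0.5N, red diamonds for 0.7N and blue circles for no dose. In nocodazole at T30 the 0.5N library lies above the others in SLT2, KDX1, RLM1 and CRH1 and below them in GSC2 and CHS1, while in alpha factor the dose labels lie close together.

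After 3.5 h of nocodazole salt raised GSC2 from 635 and 737 CPM to 2349 and 1494 CPM (1.69 ± 0.35, edgeR adjusted p = 0.00218) and CHS1 from 333 and 350 CPM to 803 and 847 CPM (1.44 ± 0.32, edgeR adjusted p = 0.00345). These were 2 of 10, against 28.8% of all genes (14.1% higher and 14.7% lower), and both were called with each library left out. SLT2 was at 243 and 248 CPM before and at 165 and 305 CPM after salt, 1 library below and 1 above T0 (0.05 ± 0.32). The summed mitotic markers of these 2 libraries were 490 and 1028 CPM, against 847 and 859 CPM at T0, and their part was not tested.

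Under cycloheximide, which slows protein synthesis, salt raised 3 of the 10 genes, against 33.7% of all genes (16.3% higher and 17.4% lower). CHS1 went from 297 and 261 CPM to 1695 and 883 CPM (2.15 ± 0.32, edgeR adjusted p = 0.000129), SLT2 from 118 and 134 CPM to 271 and 370 CPM (1.24 ± 0.32, edgeR adjusted p = 0.00709), and GSC2 from 338 and 247 CPM to 856 and 656 CPM (1.28 ± 0.34, edgeR adjusted p = 0.00855). No group overlapped, and the GSC2 call was lost without T0 replicate 2 or T30 replicate 1 (edgeR adjusted p = 0.0941 and 0.0575). The 3 single pairs of other cycloheximide libraries gave CHS1 at 236 and 1228 CPM (0.1, added cells), 256 and 1176 CPM (0.2, added cells) and 281 and 1801 CPM (0.2, no added cells). Each salt library was thus far above its T0 library, and these pairs have no replicate check. Cycloheximide 0.1 before salt, set against the 1 growing library, gave 0 member calls in edgeR and in DESeq2 and 0 at an unadjusted p under 0.05 (0.0171% of all genes called).

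Heat for 10 minutes lowered signalling genes in alpha factor. SLT2 fell from 812 and 628 CPM to 352, 339 and 352 CPM (-0.99 ± 0.20, edgeR adjusted p = 0.00989), KDX1 from 160 and 153 CPM to 74.2, 98.8 and 84.7 CPM (-0.82 ± 0.21, edgeR adjusted p = 0.0261), and RHO1 from 581 and 544 CPM to 351, 379 and 350 CPM (-0.59 ± 0.17, edgeR adjusted p = 0.0402). Every heat library was below every T0 library in all 3 genes, the only members called, against 15.3% of 5689 genes (7.05% higher and 8.24% lower). None of the 3 passed when the temperatures were fitted as separate groups (edgeR adjusted p = 0.0633, 0.152 and 0.19) or without T0 replicate 1 (0.101, 0.12 and 0.169). RHO1 did not pass without any 1 of the 5 libraries, and KDX1 also did not pass without T0 replicate 2, T10 replicate 1 or the 37c library. CHS3 was at 712, 985 and 524 CPM against 1328 and 1431 CPM, without overlap (-0.86 ± 0.29, edgeR adjusted p = 0.0752). Over the same libraries the summed pheromone markers went from 4025 and 4041 CPM to between 2192 and 3099 CPM, and their part in these values was not tested.

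In nocodazole heat raised GSC2 from 170 and 194 CPM to 454, 481 and 612 CPM (1.58 ± 0.34, edgeR adjusted p = 0.0057), without overlap. It was the 1 member called, against 33.1% of all genes (16.3% higher and 16.8% lower). SLT2 was at 194 and 206 CPM before and at 269, 210 and 171 CPM after heat, an overlapping range (0.17 ± 0.21). FKS1 was at 3162 and 3842 CPM before and at 964 (no temperature in the label), 2911 (33c) and 1304 CPM (37c) after heat. Its change of -0.97 ± 0.48 did not pass, and without the 33c library it was -1.51 (edgeR adjusted p = 0.0257). CHS3 was likewise highest after heat in the 33c library, at 293 (no temperature in the label), 480 (33c) and 290 CPM (37c). Its change was -0.71 ± 0.29 for all and -0.95 without the 33c library (edgeR adjusted p = 0.0331).

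None of the differences between the heat responses in nocodazole and alpha factor passed in edgeR (1.37% of all genes called, 0.791% higher and 0.580% lower), although 5 had an unadjusted p under 0.05 and DESeq2 called 4 (4.99% of all genes). KDX1 (1.31 ± 0.30, edgeR adjusted p = 0.0677) and SLT2 (1.17 ± 0.29, edgeR adjusted p = 0.0814) came nearest, and DESeq2 called both along with RHO1 and GSC2. In the 1 pair of growing libraries GSC2 was at 170 CPM before and 850 CPM after heat, FKS1 at 3816 and 1036 CPM, and SLT2 at 132 and 222 CPM.

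Single libraries at later times, which have no replicate check, showed levels that the first sampling did not. In alpha factor with heat SLT2 stood at 812 CPM at T0, 352 at T10, 531 at T20, 760 at T30 and 879 at T40. It was thus lowest at T10 and above its starting level at T40. KDX1 (160, 74.2, 151, 275 and 387 CPM) and CHS3 (1328, 712, 1409, 1743 and 2426 CPM) had the same low point and ended further above T0. GSC2 was at 1713 CPM at T0 and at 4399 CPM at T40, its highest level in that series.

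In nocodazole with heat no such low point was seen in the signalling genes. KDX1 was at 25.4, 41.1, 107, 234 and 273 CPM from T0 to T40, and SLT2 at 194, 269, 395, 522 and 544 CPM. GSC2 was at 170, 454, 1022, 1121 and 1385 CPM over the same times. All 3 were at their highest at T40, whereas FKS1 was lowest at T10 with 964 CPM and was back at 3291 CPM at T40 from 3162 CPM at T0. CRH1 was at 131 and 118 CPM at T0 and T10 and at 599 CPM at T40.

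With salt in nocodazole the genes differed in when they were high. CHS1 was at 246 CPM at T0, 1084 at T15, 567 at T30, 494 at T45 and 465 at T60, highest at T15. GSC2 was at 355, 546, 1371, 1374 and 1426 CPM, level from T30 on. KDX1 was at 44.4, 39.8 and 29.9 CPM up to T30 and then at 196 and 124 CPM, and CRH1 at 155, 203 and 156 CPM and then at 644 and 442 CPM. SLT2 went with them, at 257 CPM at T30 and 529 at T45. The T45 library with no dose in its label thus had levels of SLT2, KDX1 and CRH1 like those of the 0.5N library at T30. In alpha factor with salt SLT2 was at 542, 524, 748, 522 and 353 CPM and KDX1 at 170, 167, 255, 157 and 110 CPM, both highest at T30. FKS1 was at 3088 CPM at T30 and 5951 CPM at T60.

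**Figure D4:**
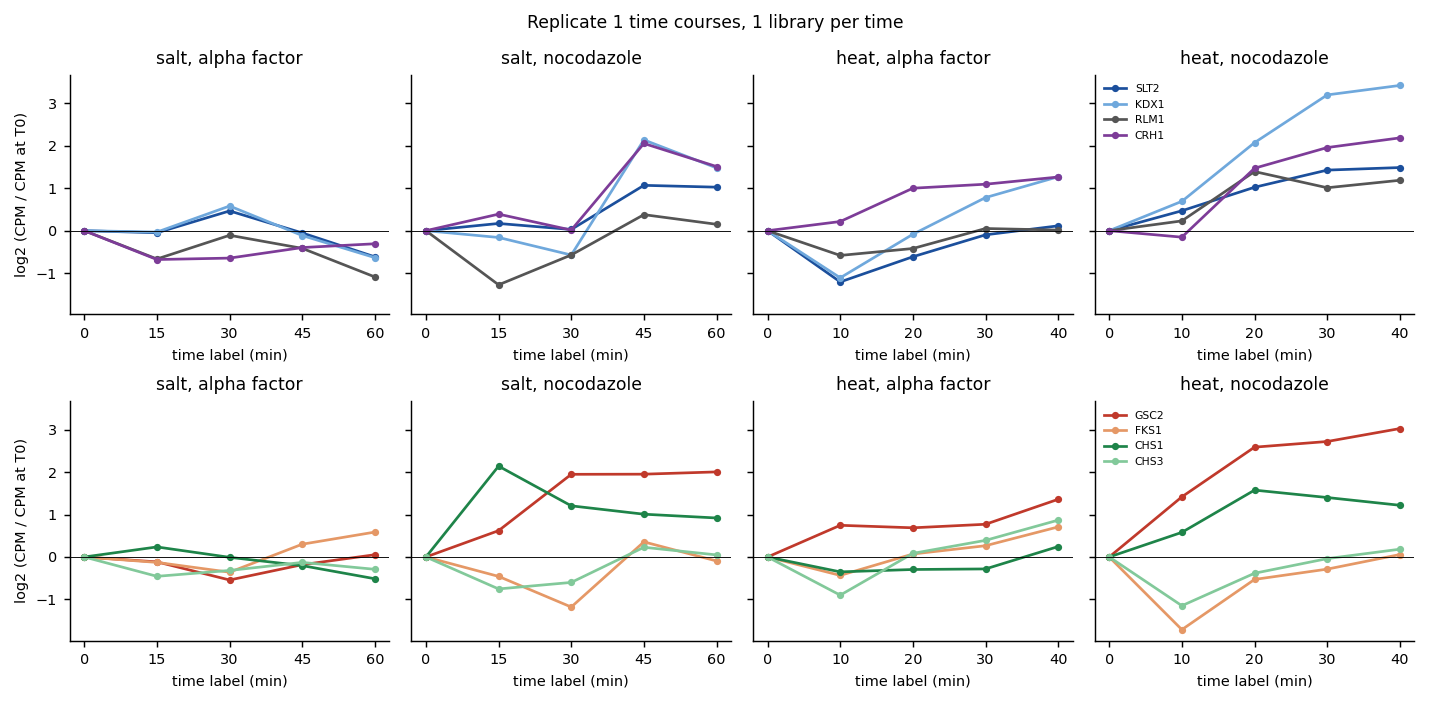
Log2 of each level relative to T0 in the replicate 1 series of salt and heat in both arrests, with 1 library per time, time labels read as minutes, signalling genes and CRH1 in the upper row and synthases in the lower. In alpha factor with heat SLT2, KDX1 and CHS3 dip at T10 and return, while in nocodazole with heat KDX1 and GSC2 are higher at every later time, and in nocodazole with salt KDX1, SLT2 and CRH1 are highest at T45.

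Of 49 other genes of the pathway, listed as sensors, Rho1 regulators, cascade kinases and phosphatases, synthase partners and Rlm1 targets, 18 were higher and 3 lower in alpha factor than in growing cells (edgeR, beside the 8.60% and 4.23% of all genes). Among the 5 sensors, MID2, which responds to pheromone-induced growth, was higher (2.28 ± 0.32), as was WSC2 (1.21 ± 0.25). Of 7 Rho1 regulators only BAG7, a GTPase-activating protein of Rho1, was called (4.98 ± 0.63). Of 11 kinases and phosphatases, MSG5 (2.15 ± 0.25) and PTP2 (1.40 ± 0.21), phosphatases of MAP kinases, were higher, and the kinase BCK1 was lower (-0.48 ± 0.15). Of 14 synthase partners 6 were higher, with GFA1, the first enzyme of chitin precursor synthesis, at 2.48 ± 0.24, the glucan assembly gene KRE6 at 2.38 ± 0.39 and FKS3 at 2.01 ± 0.25, and the septum chitin synthase CHS2 was lower (-1.67 ± 0.25). Of 12 Rlm1 targets 7 were higher, led by PRM5 (3.02 ± 0.26) and the wall protein gene PIR3 (2.76 ± 0.49), and PIR1 was lower (-3.12 ± 0.21). With S. pombe totals 8 were called as higher and 2 as lower, all with the same sign, and WSC2, PTP2 and BCK1 were among those that no longer passed.

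Salt in growing cells raised 15 of the 49 and lowered 4, against 22.2% and 19.6% of all genes. BAG7 (3.98 ± 0.65), ROM1, an exchange factor that activates Rho1 (1.68 ± 0.22), and the sensor MTL1 (1.62 ± 0.47) rose, and LRG1, which inactivates Rho1 in glucan synthesis, fell (-0.67 ± 0.21). SDP1, a stress-induced phosphatase of Slt2 (2.65 ± 0.41), PKH1 (1.26 ± 0.19) and PTP2 (1.21 ± 0.21) rose. The wall protein genes CWP1 (3.56 ± 0.20) and PIR3 (3.06 ± 0.48) rose, while GAS1, which remodels glucan (-1.51 ± 0.31), and UTR2, which like CRH1 links chitin to glucan (-1.15 ± 0.32), fell. With S. pombe totals 16 were called as higher and 0 as lower, with GAS1 at -0.88 and UTR2 at -0.52. In alpha factor salt raised 6 of the 49 and lowered 4 (5.47% and 3.62% of all genes), CWP1 (2.15 ± 0.19), PIR3 (2.43 ± 0.40), PIR1 (2.02 ± 0.20) and SDP1 (1.78 ± 0.43) among the higher and WSC2 (-0.96 ± 0.25) and MSG5 (-0.92 ± 0.24) among the lower. With S. pombe totals 5 were called as higher and 0 as lower there. Wall protein genes outside the 10 were thus among those that rose with salt in this arrest. That none of the 10 was called there lies near the 9.09% of all genes called. With the replicate block KDX1 passed as higher and CHS3 as lower.

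In nocodazole arrest salt raised 12 of the 49 and lowered 3, and heat raised 12 and lowered 5, in both cases near the 31.6% and 33.1% of all genes called. BAG7 rose in both (4.06 ± 0.64 with salt and 5.77 ± 0.55 with heat), as did SDP1 (2.21 ± 0.46 and 2.70 ± 0.36), MTL1 (1.86 ± 0.38 and 2.78 ± 0.49) and CWP1 (2.66 ± 0.28 and 2.50 ± 0.54). UTR2 fell in both (-1.95 ± 0.41 and -1.77 ± 0.34). Heat in alpha factor raised 6 and lowered 3 (7.05% and 8.24% of all genes), with ROM1 (1.34 ± 0.29) and SDP1 (1.63 ± 0.35) higher and MSG5 (-1.28 ± 0.33) lower.

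Across the 50 libraries without added cells, which share states, stresses and series, the 10 genes were compared by the Pearson correlation of log2 CPM, given as a description over 5159 genes. SLT2 and KDX1 were most like each other of all genes (r = 0.921). The next pairs among the members were GSC2 with CHS1 (0.848), KDX1 (0.817) and SLT2 (0.814), then CHS3 with KDX1 (0.778) and RHO1 (0.768), while CHS1 with KDX1 stood at 0.640. CHS3 was most like KTR2, a mannosyltransferase gene (0.928), GFA1 (0.917) and MSG5 (0.897). FKS1 was most like genes of amino acid and sugar metabolism, ILV1 (0.903) and TKL1 (0.876). RHO1 was most like ARP2 of the actin nucleating complex (0.834), RLM1 like ASK10 (0.855), PKC1 like DNF3 (0.800), CHS1 like PRM8 (0.913), GSC2 like YIL108W (0.915) and CRH1 like the yapsin protease gene YPS3 (0.753).

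Ribosome association was measured in growing cells before and after salt (2 gradients each) and in alpha factor before salt (1 gradient), as the log2 ratio of a gene's counts in polysomes of 2 ribosomes and more to those in lighter fractions, scaled by added S. pombe RNA. RLM1 had among the lowest ratios of all genes in every gradient, at percentiles 2.24 and 2.93 at T0, 1.35 and 0.831 at T30 and 4.49 in alpha factor, with 5.60 to 15.9% of its counts in polysomes. RHO1 was near the top, at percentiles 92.0 to 94.9, with 50.2 to 69.9% of its counts in polysomes. KDX1, with 157 to 569 counts over the fractions in 3 of the 4 growing gradients and 992 in the other, lay at percentiles 6.08 and 1.07 at T0 and 10.8 and 22.9 at T30.

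None of the 10 ratios was called as changed with salt in limma (2.32% of 5053 genes called, 2.16% higher and 0.158% lower), and 1, that of KDX1, had an unadjusted p under 0.05 (1.36 ± 0.45, limma adjusted p = 0.0914). The standard errors ran from 0.45 (KDX1) to 0.59 (RHO1), so changes of that size could go uncalled. KDX1 was in this test only through its salt libraries, with inputs of 8.97 and 10.1 CPM at T0 and 16.1 and 20.02 CPM at T30 against the minimum mean of 10 CPM, and its value is given as a description. The median change of all genes was 0.36. In the 1 alpha-factor gradient KDX1 lay at percentile 56.0 and GSC2 at 70.6, against 30.04 and 34.4 for GSC2 in growing cells at T0. 40.2% of the KDX1 counts and 48.7% of the GSC2 counts were in polysomes there, values that have no replicate check.

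**Figure D5:**
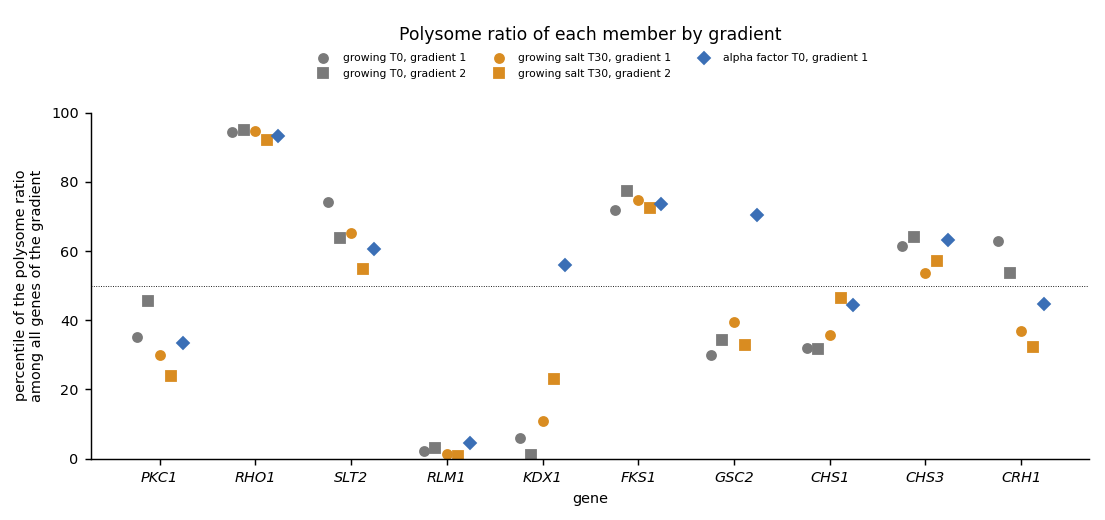
Percentile of each gene's polysome ratio among all genes of the same gradient (0 to 100, dotted line at 50), with grey for growing cells at T0, orange for salt T30 and a blue diamond for the 1 alpha-factor gradient. RLM1 stays at the bottom and RHO1 near the top in all 5 gradients, while KDX1 and GSC2 stand higher in alpha factor than in growing cells.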

How the data were processed

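The 10 members and the gene lists were chosen with earlier results of these data known. The authors deposited unnormalised read counts for each ORF, with S. pombe counts beside them where its cells or RNA had been added. Their tools, per the submitters' processing notes, were Trimmomatic 0.32, Bowtie2 and HTSeq 0.6.1. The Bowtie2 version, the genome build, the gene models and the use of strand were not given in the sources used here. 70 count columns that match no labelled sample were not used. Left out were emptied lines (8, 4 and 4 in the tables without added cells, with added cells and of gradients), rows of the 2-micron plasmid, and a nameless row that took 0.00248 to 0.00545% of counts. No libraries of a group looked like copies, with a chi-square per degree of freedom of 1.9 or more between any pair.

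Salt T0 and T30 (22 libraries), heat T0 and T10 (12) and the libraries with added cells (16) were each fitted once with filterByExpr, TMM scaling and edgeR 4.0.16 (R 4.3.3), whose quasi-likelihood test is two-sided here, with Benjamini-Hochberg adjustment over all genes and a threshold of 0.05. Dose labels and temperature labels were pooled, and 0.5N and 0.7N (33c and 37c) share replicate number 2. The 1 growing library of a series was taken to vary like the other groups. Polysome ratios, which assume equal S. pombe RNA per fraction, were compared with limma 3.58.1 for genes of at least 10 CPM on average in the inputs. DESeq2 1.42.0 was an alternative. Intervals cover counting error only where they are Poisson, and are from the fits otherwise. Scripts were tested on simulated counts.

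Replicate numbers were checked by correlating residuals across groups. With added cells, libraries of the same number correlated at 0.313 to 0.706 (18 pairs) and those of different numbers at -0.652 to 0.184 (36 pairs), and same-numbered libraries were taken as paired. The reported fits nevertheless had no term for these pairs, and the block fit is an alternative. With the block, 8 members were called for arrest (1719 of 5744 genes) and 5 for salt in growing cells (3420). It called 2 for salt in alpha factor (1722) and 3 for the difference of responses (1800). Named genes are all 10 members, up to 4 called genes per list and comparison with the largest change, the state markers, and for each member the genes with the highest correlation.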

Additional observations from a re-analysis of the deposited data

Results flagged for a closer look

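In the libraries with added cells the salt response of SLT2 differed between alpha-factor arrest and growth, by -1.48 on the log2 scale in a test of the difference itself (edgeR adjusted p = 0.00241), with higher values after salt in 3 of 3 pairs of growing libraries and in 3 of 3 pairs in alpha factor. The salt response of GSC2 differed by -2.25 in the same test (edgeR adjusted p = 0.0186), higher in 3 of 3 growing pairs and lower in 3 of 3 alpha-factor pairs. With S. pombe totals the SLT2 difference did not pass (-1.50, edgeR adjusted p = 0.384). The GSC2 difference did not pass without alpha-factor T0 replicate 1.

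Without added cells the salt response of GSC2 was larger in nocodazole than in alpha factor by 1.97 (edgeR adjusted p = 0.0303), with all 3 nocodazole libraries above both of their T0 libraries and all 3 alpha-factor libraries below theirs. The call held without the nocodazole 0.5N library. It was lost when any other single library of the comparison was left out.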

How the results depend on the processing

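Of 1889 recomputed values of single members 1788 stayed on their side of the threshold, 35 no longer passed, 66 newly passed and 0 reversed. Among the 1788 were 119 values that passed in neither fit and changed sign. Counts of called members moved as follows, with the count over all genes in brackets where it is given below. These member counts are not read as results without it. With the replicate block, salt in alpha factor with added cells gave 2 (1722), arrest before salt 8 (1719) and the nocodazole minus alpha-factor salt difference 2 (331). The block also gave 6 for nocodazole against alpha factor before salt, 2 for heat in nocodazole, 2 (226) for the heat difference and 1 (1138) for the polysome change. With DESeq2, the salt difference gave 2 (315), nocodazole against alpha factor 5 and the heat difference 4 (284). With only the groups compared in the fit, salt in alpha factor without added cells gave 1 (1024) and the salt difference 2. That fit gave 8 (1509) for nocodazole against alpha factor, 8 (1520) for nocodazole against growing and 4 (623) for 3.5 h against 2 h nocodazole. S. pombe totals gave 1 (68) for the difference between alpha-factor and growing responses, and separate temperatures gave 0 (377) for heat in alpha factor. The polysome change gave 2 (1597) with total S. cerevisiae scaling and 1 (199) with polysomes from 3R. Leaving out 1 library at a time gave 0 to 1 for salt in alpha factor with added cells, 1 to 3 for its difference from growing cells, 0 to 4 for salt in nocodazole, 0 to 2 for the nocodazole minus alpha-factor difference, 0 to 3 for heat in alpha factor and 1 to 3 for heat in nocodazole. The cause was not tested. Same-number residual correlations were -0.441 to 0.544 for salt and -0.512 to 0.798 for heat, so these numbers were not taken as pairs. For cycloheximide and 3.5 h nocodazole they were 0.201 to 0.654, and -0.654 to -0.201 between different numbers, so these libraries deviated together by number. With only 2 numbers this was not taken as pairing. The block left 3 members called for salt under cycloheximide 0.1 and 2 for salt after 3.5 h nocodazole. KDX1 has no value in the polysome test when 10 CPM is asked at each time. Other settings left each count within 1.5 times. Counts over all genes also moved by more than 1.5 times. For libraries with added cells, salt in growing cells went from 2399 to 1432 with S. pombe totals, salt in alpha factor from 522 to 279 (S. pombe) and 1722 (block), the difference from 505 to 68 (S. pombe), 758 (DESeq2) and 1800 (block), and arrest from 737 to 231 (S. pombe) and 1719 (block). Without added cells, salt in alpha factor went from 342 to 525 (DESeq2), 541 (block) and 1024 (groups compared), the nocodazole minus alpha-factor difference from 138 to 315 (DESeq2), 331 (block) and 291 (separate doses), nocodazole against alpha factor from 516 to 1509 (groups compared), nocodazole against growing from 100 to 193 (DESeq2), 153 (block) and 1520 (groups compared), 3.5 h against 2 h from 16 to 109, 40 and 623 in the same order, cycloheximide against growing from 1 to 19, 126 and 21, salt after 3.5 h nocodazole from 1679 to 915 and salt under cycloheximide from 1965 to 1060 (groups compared). Heat in alpha factor went from 870 to 377 (separate temperatures) and the heat difference from 78 to 284 (DESeq2), 226 (block) and 0 (separate temperatures). The polysome change went from 117 to 199 (3R), 51 (10 CPM at each time), 1138 (block) and 1597 (total counts). With 1 library left out, the lowest and highest counts were 199 and 409 for salt in alpha factor and 236 and 713 for its difference from growing (added cells), 484 and 650 for arrest, 78 and 315 for salt in alpha factor and 993 and 2140 for salt in nocodazole (no added cells), 12 and 730 for their difference, 872 and 1978 for salt after 3.5 h nocodazole, 248 and 343 for nocodazole against alpha factor, 42 and 49 for nocodazole against growing, 0 and 4 for 3.5 h against 2 h, 265 and 766 for heat in alpha factor, 1209 and 1945 for heat in nocodazole, 0 and 106 for the heat difference and 3 and 466 for the polysome change. Groups hold 2 or 3 libraries, and the time series 1 per time.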

Other observations

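4 libraries carry the time label t0' (meaning not given in the sources used here). Their values are set beside T0 replicate 1 of the same arrest. In the alpha-factor salt series GSC2 was at 199 CPM at t0' and 4110 CPM at T0, and in the heat series at 131 and 1713 CPM. SLT2 was at 92.0 and 542 CPM in the former and at 131 and 812 CPM in the latter. The t0' libraries of both series were thus near the growing cells, whose range over 5 libraries at T0 was 170 to 244 CPM for GSC2 and 79.7 to 132 CPM for SLT2. In the nocodazole series CRH1 was at 212 CPM at t0' and 155 CPM at T0 with salt, and at 246 and 131 CPM with heat, while SLT2 was at 114 and 252 CPM and at 137 and 194 CPM.

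The heat libraries labelled 33c and 37c, 1 of each per arrest, differed most in FKS1, with a ratio of 37c to 33c of 0.471 in alpha factor and 0.448 in nocodazole, and in CHS3 (0.532 and 0.605). GSC2 was at 0.709 in alpha factor and 1.27 in nocodazole, and PKC1 at 0.953 and 0.971.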
